A study of Homo sapiens with 4 samples.

Results

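The TNF superfamily is a set of signaling proteins and receptors, and 10 of its genes were described in a human bronchial epithelial cell line exposed to bacterial lipopolysaccharide (LPS). The genes were taken by symbol from a list, as 10 of the 24424 gene symbols counted. The list was chosen with earlier results of these data known. 5 encode ligands (TNF, LTB, TNFSF10, TNFSF13B and TNFSF15) and 5 encode receptors (TNFRSF1A, TNFRSF1B, TNFRSF9, FAS and CD40). Counts were present for all 10, and all 10 reached 16 normalized counts in one library or more.

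The cells were BEAS-2B, an established line derived from human bronchial epithelium. RNA sequencing was performed on 4 libraries, 1 for each of Control (no treatment), LPS for 2 hr, WT PDZ peptide for 24 hr and then LPS for 2 hr (WT PDZ+LPS), and mut PDZ peptide on the same schedule (mut PDZ+LPS). The last 2 are also called the libraries with the WT and the mut peptide, and 4 values in a row follow this order. LPS is a component of the outer membrane of gram-negative bacteria. The PDZ peptide is a stretch of the first PDZ domain of the tight junction protein ZO-1. It carries an added TAT sequence for entry into cells and a fluorescent tag. In the mut peptide a neighbouring pair of glycines is replaced by alanines. The LPS dose used on these cells is not given in the sources used here, and a library of peptide without LPS was not analysed here. The library totals ranged from 19682929 counts in mut PDZ+LPS to 25155647 in LPS. With 1 library in each group there is no replicate spread, so no test of a condition was possible. Differences are between libraries, and each interval given is a 95% exact binomial interval that covers counting error only. Normalized counts are counts divided by a size factor for the library, and fold changes are on the scale of log2(normalized count + 1), which understates those of low genes. In bulk RNA a smaller number of expressing cells and less RNA in each cell cannot be told apart.

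TNF superfamily ligands are made mostly as membrane proteins that work as trimers, and many are also cut free of the membrane. Many of their receptors carry a death domain, through which they can start apoptosis, or bind TRAF adaptors, through which they activate NF-kB and MAP kinases, and some are decoys that bind a ligand without signaling. NF-kB in turn acts on the genes of several ligands, receptors and inhibitors of the same pathway. In the airway epithelium LPS is sensed through Toll-like receptors, which also activate NF-kB.

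The labelled cell type was checked against marker genes. All 10 epithelial markers were detected in every library, and the keratin KRT7 ranged from 38725 to 51663 normalized counts. The surface marker EPCAM was low, between 34.8 and 49.5 normalized counts. Of 12 leukocyte markers, PTPRC, MS4A1, CD163 and FCGR1A were at 0 in all 4 libraries. The sum over the leukocyte markers was 757 normalized counts in Control, 745 in LPS, 735 with the WT peptide and 902 with the mut peptide, nearly all from CD14 and CD68. The sum over the epithelial markers was also highest in mut PDZ+LPS, with 107496 normalized counts against 75739 to 80680 in the other libraries. The median log2 fold change of these markers in mut PDZ+LPS/LPS was 0.30 as counted and -0.0029 corrected for length and GC content of the transcripts.

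The promoters of the 4 genes that were higher in LPS than in Control by the call rule described below are shown because LPS acts largely through NF-kB. Each sequence is the 250 bases before the gene's start, 5′ to 3′ on the gene's strand, from RefSeq on GRCh38.p14, and capitals mark matches to the 10-base NF-kB consensus on either strand. TNF is at chr6:31575315-31575564 on the plus strand, and LTB, TNFSF15 and TNFRSF9 are on the minus strand at chr6:31582426-31582675, chr9:114792531-114792780 and chr1:7940840-7941089.
TNF: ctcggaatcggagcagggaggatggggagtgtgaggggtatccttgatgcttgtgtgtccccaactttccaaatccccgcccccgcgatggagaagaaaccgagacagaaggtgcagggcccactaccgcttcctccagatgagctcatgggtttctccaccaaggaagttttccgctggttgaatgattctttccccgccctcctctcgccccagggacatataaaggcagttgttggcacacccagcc
LTB: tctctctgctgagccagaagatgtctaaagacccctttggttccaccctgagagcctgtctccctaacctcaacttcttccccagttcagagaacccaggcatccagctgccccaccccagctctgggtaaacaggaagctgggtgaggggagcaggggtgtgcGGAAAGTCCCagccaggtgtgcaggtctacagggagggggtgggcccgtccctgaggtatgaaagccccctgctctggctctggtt
TNFSF15: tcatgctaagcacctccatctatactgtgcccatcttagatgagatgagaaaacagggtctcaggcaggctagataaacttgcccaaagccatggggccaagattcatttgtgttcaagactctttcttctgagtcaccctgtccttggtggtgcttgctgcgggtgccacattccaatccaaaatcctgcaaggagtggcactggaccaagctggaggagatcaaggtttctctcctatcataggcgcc
TNFRSF9: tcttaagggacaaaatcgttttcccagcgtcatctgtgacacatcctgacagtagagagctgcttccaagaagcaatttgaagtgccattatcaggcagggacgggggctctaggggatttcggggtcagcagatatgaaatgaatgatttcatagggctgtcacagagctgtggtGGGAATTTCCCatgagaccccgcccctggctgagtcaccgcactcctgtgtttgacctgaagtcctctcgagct

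The LTB window held GGGACTTTCC on the opposite strand, 86 to 77 bases before the start. A match to the consensus was present in 9.96% of the 35116 RefSeq windows of this length. The TNFRSF9 window held GGGAATTTCC on the gene's strand, 74 to 65 bases before the start, and an overlapping match on the opposite strand. The windows shown for TNF and TNFSF15 held no match, which says only that these letters are not in those 250 bases. Of the 10 genes, 9 had a RefSeq window. Of these 9, 3 held the consensus in any window, LTB, TNFRSF9 and FAS, against 11.8% of all genes with a window. The 9 genes had 13 windows, and 4 of these held it, against 9.96% of all windows. Not all of the 3 FAS windows held it, and the LTB windows overlap. The letters TATAAA were present in the TNF window, 29 to 24 bases before the start, and in the TNFSF10 window, 31 to 26 bases before it. Among all genes with a window, 13.0% held these letters on either strand.

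The first comparison, LPS/Control, asks which of the 10 genes differed after 2 hr of LPS. The ligands TNF, LTB and TNFSF15 were at 0 counts in Control and were all detected in LPS, and the receptor TNFRSF9 was 11.8-fold higher. FAS and CD40 were 1.76-fold and 1.79-fold higher, and the interval of TNFRSF1B lay above 0. TNFSF10 and TNFRSF1A were at nearly the same level in both libraries. A gene was called when it differed at least 2-fold and reached 16 normalized counts in one of the libraries compared. By this rule 4 of the 10 genes were called higher in LPS and 0 lower, against 3.46% of 13277 genes higher and 1.41% lower. The counting interval lay above 0 for 7 of the 10 genes and below 0 for 0, against 25.9% and 21.3% of the genes tested. The median log2 fold change of the 10 genes was 0.88, against -0.0023 over all genes tested. Setting the genes at 0 in Control to their bound left it at 0.88. That setting could not move the median, as these genes lie above it either way.

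**Figure D1:**
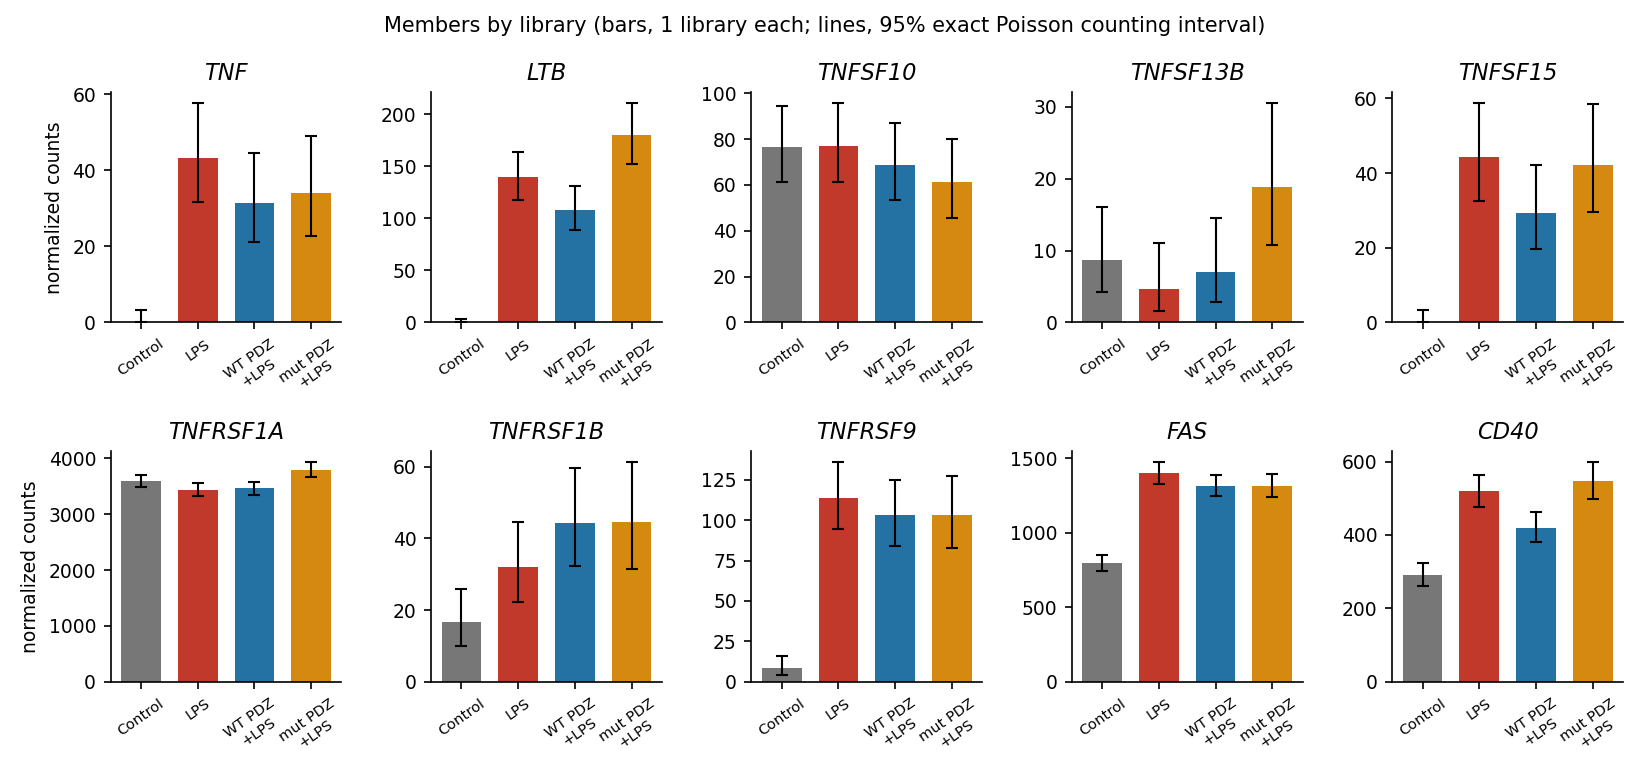
Normalized counts (y axis) of the 10 genes in the 4 libraries (x axis), with 1 bar for each library and a line for its 95% exact Poisson counting interval. TNF, LTB and TNFSF15 have no bar in Control, TNFRSF9 stands at 8.70 in Control against 103 to 114 in the other libraries, and TNFRSF1A lies between 3442 and 3799 in all 4.

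TNF, the founding cytokine of the family and an early mediator of inflammation, had 0 counts in Control, 46 in LPS, 31 with the WT peptide and 29 with the mut peptide. These are 0, 43.3, 31.3 and 34.1 normalized counts. Taking the 0 as 3 counts, with a plain ratio of normalized counts, TNF was at least 16.6-fold higher in LPS than in Control. This bound takes the LPS count as measured, and the counting interval of the ratio began at 3.69 on the log2 scale. A count of 0 in Control allows up to 0.121 CPM, so TNF was not detectable there at this depth, which does not show that it was absent.

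LTB, lymphotoxin beta, which anchors lymphotoxin alpha at the cell surface in a complex that binds the receptor LTBR, had 0 counts in Control, 148 in LPS, 107 with the WT peptide and 153 with the mut peptide. The normalized counts were 0, 139, 108.0 and 180, and as a level per transcript length LTB was the highest of the 5 ligands in the 3 LPS-treated libraries. LTB was at least 53.3-fold higher in LPS than in Control by the same bound, with a counting interval that began at 5.42 on the log2 scale. Its partner LTA had only 3, 3, 2 and 5 counts in the 4 libraries. The receptor LTBR was present throughout, with 3247 normalized counts in Control and 3787 in LPS.

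TNFSF15, also called TL1A, a ligand of the death domain receptor TNFRSF25, had 0 counts in Control, 47 in LPS, 29 with the WT peptide and 36 with the mut peptide. It was at least 16.9-fold higher in LPS than in Control, with a counting interval that began at 3.73 on the log2 scale. Its receptor TNFRSF25 was low, at 44 counts in Control and 29 in LPS. The decoy receptor TNFRSF6B, which also binds TNFSF15, was at 532 normalized counts in Control and 1192 in LPS.

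The other 2 ligands did not share this pattern. TNFSF10, the apoptosis-inducing ligand TRAIL, had 88 counts in Control, 82 in LPS, 68 with the WT peptide and 52 with the mut peptide. Its log2 fold change in LPS/Control was 0.010, with an interval of -0.44 to 0.46. TNFSF13B, the B cell survival factor BAFF, had 10, 5, 7 and 16 counts in the 4 libraries. It stayed below 16 normalized counts in both Control and LPS, and its interval of -2.79 to 0.80 held 0.

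Among the receptors, TNFRSF9 (4-1BB), a costimulatory receptor best known on activated lymphocytes, had 10 counts in Control, 121 in LPS, 102 with the WT peptide and 88 with the mut peptide. Its log2 fold change in LPS/Control was 3.56, with an interval of 2.78 to 4.81. The intervals of the 3 LPS-treated libraries overlapped each other and all lay above that of Control. Its ligand TNFSF9 was at 58.3 normalized counts in Control and 47.0 in LPS, with an interval of the difference that held 0.

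FAS and CD40 were also higher in all 3 LPS-treated libraries than in Control, with intervals clear of 0. FAS, a death receptor, had 912, 1487, 1302 and 1117 counts in the 4 libraries. Its log2 fold change in LPS/Control was 0.82, with an interval of 0.70 to 0.94. CD40, a TRAF-binding receptor known from antigen-presenting cells, had 333, 552, 415 and 465 counts, and its log2 fold change was 0.84, with an interval of 0.64 to 1.04. Neither reached 2-fold. The ligand of FAS, FASLG, was at 0 in all 4 libraries, and that of CD40, CD40LG, had at most 2 counts. FAS overlaps ACTA2 on the opposite strand, which had 64 to 89 counts, and the antisense symbol FAS-AS1 had 10 to 25. The strand setting of the counting is not given in the sources used here.

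The 2 receptors of TNF differed in level and in fold change. TNFRSF1A, the broadly expressed receptor with a death domain, had 4123, 3659, 3429 and 3233 counts in the 4 libraries. Its log2 fold change in LPS/Control was -0.060, with an interval of -0.12 to 0.004. TNFRSF1B, which has no death domain and binds TRAF adaptors, had 19, 34, 44 and 38 counts, and its log2 fold change was 0.91, with an interval of 0.10 to 1.84. As levels per transcript length, TNFRSF1A exceeded TNFRSF1B 360-fold in Control (230 to 598), 178-fold in LPS (127 to 258), 129-fold with the WT peptide (96.0 to 178) and 141-fold with the mut peptide (102 to 200). The interval in LPS overlapped that in Control and also those with a peptide. Those with a peptide lay below that in Control. Overlapping intervals do not show that the ratios were equal, and the interval of TNFRSF1B itself lay above 0 in LPS/Control.

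**Figure D2:**
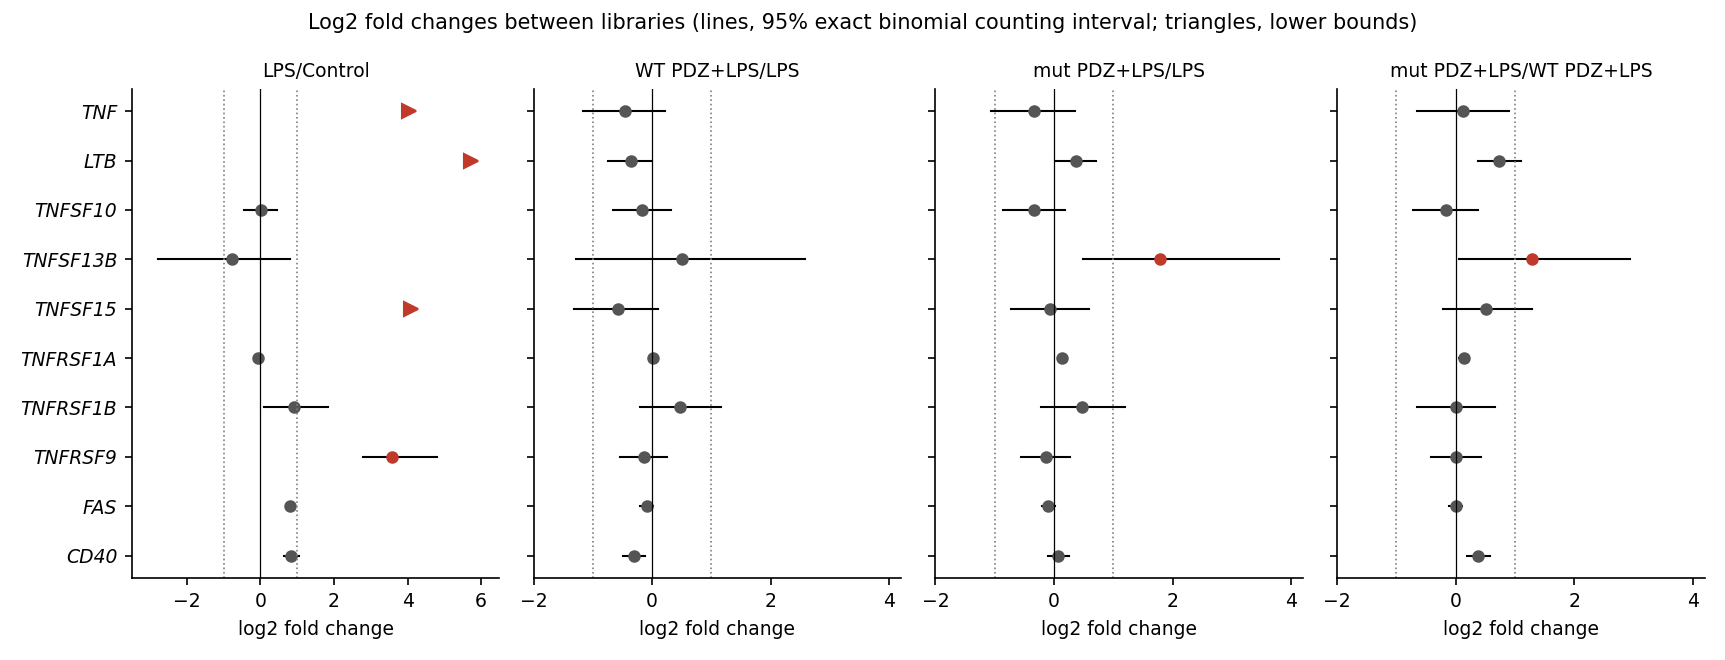
Log2 fold changes (x axis) of the 10 genes (y axis) in 4 comparisons of 2 libraries, with the 95% exact binomial counting interval as a line, lower bounds as triangles, 2-fold as dotted lines and called genes in red. In LPS/Control the bounds of TNF, LTB and TNFSF15 and the value of TNFRSF9 stand past 3, and in WT PDZ+LPS/LPS the interval of CD40 is the one that clears 0.

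The levels were next compared between genes, as normalized counts per kb of the longest protein-coding transcript. In LPS the order was TNFRSF1A at 1548, FAS at 546, CD40 at 300.3, LTB at 155 and TNFSF10 at 39.5, each apart from its neighbour beyond the counting interval. TNF at 25.8 and TNFRSF9 at 19.1 followed and were not separated from each other, nor were TNFRSF1B at 8.68 and TNFSF15 at 6.61. TNFSF13B was lowest, at 1.80. In Control the first 3 places were the same, and TNFSF10 was the fourth at 39.2 per kb, followed by TNFRSF1B at 4.49, TNFSF13B at 3.33 and TNFRSF9 at 1.46, and none of these last 3 was separated from the next.

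**Figure D3:**
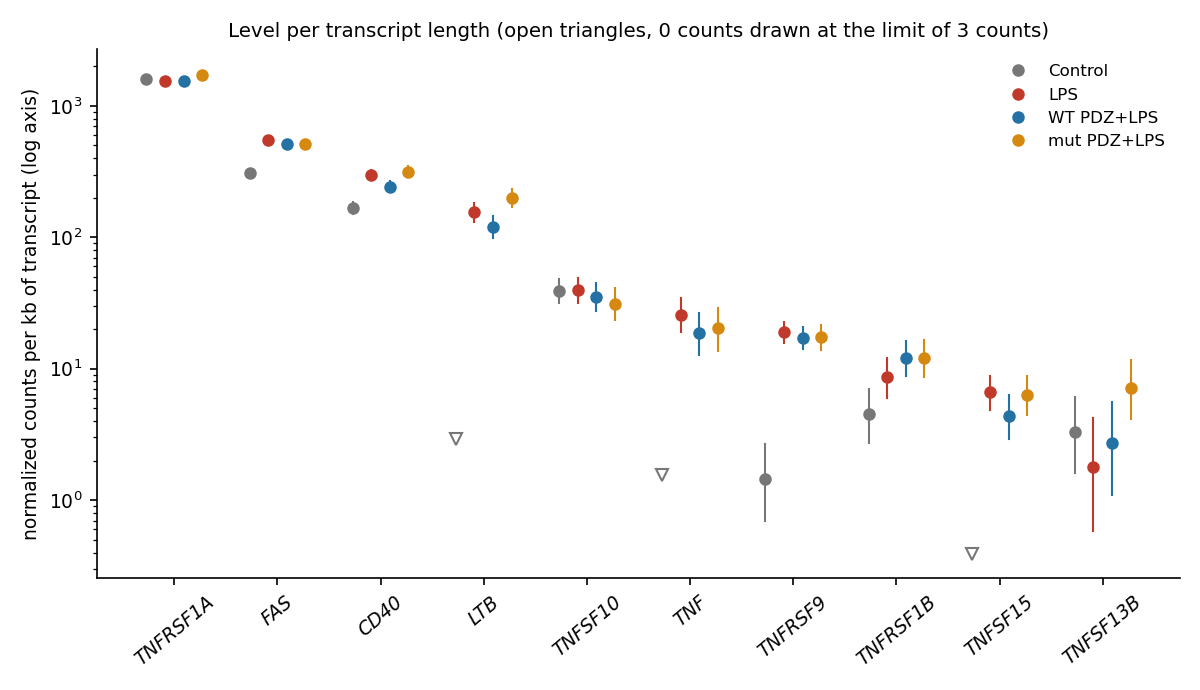
Normalized counts per kb of transcript (y axis, log scale) of the 10 genes (x axis) in the 4 libraries, with 95% exact Poisson counting intervals as lines and 0 counts drawn as open triangles at the limit of 3 counts. TNFRSF1A leads at 1548 in LPS, and LTB goes from undetected in Control to 155 in LPS.

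The makeup of the ligand group therefore differed between Control and the other libraries. TNFSF10 held 92.2% of the summed per-length level of the 5 ligands in Control. LTB held 67.8% in LPS, 66.4% with the WT peptide and 75.5% with the mut peptide, while TNF held 11.3%, 10.3% and 7.66%. Summed normalized counts of the ligands were 85.3 in Control, 309 in LPS, 244 with the WT peptide and 336 with the mut peptide. The values with the mut peptide rest largely on LTB, whose log2 fold change against LPS went from 0.37 to -0.36 when transcript length and GC content were corrected for. The receptors varied less, with sums of 4697, 5506, 5344 and 5806, and TNFRSF1A held between 63.9% and 77.0% of their per-length level. All 10 genes together took 0.0221% of the counts in Control and 0.0246% in LPS.

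WT PDZ+LPS/LPS asks whether the genes differed after pretreatment with the WT peptide. Of the 10 genes 0 were called in either direction, against 0.635% of all genes tested higher and 0.733% lower. CD40 was the one gene whose interval cleared 0, at 415 counts in WT PDZ+LPS against 552 in LPS and a log2 fold change of -0.31 (-0.50 to -0.12). Intervals were above 0 for 12.1% and below 0 for 10.2% of all genes tested. The median log2 fold change was -0.15, against 0.0076 over all genes tested.

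The 4 genes called in LPS/Control were all at lower values in WT PDZ+LPS than in LPS, but each interval held 0. They were picked for high values in the LPS library, which is also the denominator here. Lower values in another library could follow from that choice, so the shared direction is no sign of a peptide effect. TNF was at a log2 fold change of -0.45 (-1.17 to 0.22), and LTB was at -0.36 (-0.74 to 0.003). TNFSF15 was at -0.58 (-1.31 to 0.10) and TNFRSF9 at -0.14 (-0.54 to 0.25). At 46 and 31 counts a difference of the size seen for TNF was not detectable at this depth. FAS, with 1302 and 1487 counts, was at -0.089 (-0.20 to 0.019), and TNFRSF1A, with 3429 and 3659, was at 0.009 (-0.059 to 0.076). Against Control, the values of WT PDZ+LPS were at least 12.0-fold higher for TNF, 41.4-fold for LTB and 11.2-fold for TNFSF15 by that bound. The bound takes the count in WT PDZ+LPS as measured, and the counting intervals began at 3.20, 5.05 and 3.10 on the log2 scale. The log2 fold change of TNFRSF9 was 3.42 (2.63 to 4.67). TNFRSF1B was called beside these 4, at a log2 fold change of 1.37 (0.62 to 2.28), so that 5 of the 10 were called higher than in Control and 0 lower, against 3.28% and 1.42% of all genes tested. This comparison and LPS/Control share the Control library.

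mut PDZ+LPS/LPS asks the same of the mut peptide. TNFSF13B, at 18.8 normalized counts against 4.70 in LPS, was the one gene called, little above the minimum of 16, with a log2 fold change of 1.80 (0.48 to 3.80), against 2.05% of all genes tested higher and 1.9% lower. LTB at 0.37 (0.033 to 0.70) and TNFRSF1A at 0.14 (0.074 to 0.21) also had intervals above 0. These made 3 of 10 with an interval above 0 and 0 below it, against 28.8% and 33.7% of all genes tested. TNF was at -0.34 (-1.07 to 0.36), TNFRSF9 at -0.14 (-0.55 to 0.27) and FAS at -0.092 (-0.21 to 0.021). As counted, these values were close to those with the WT peptide. Corrected for length and GC content, TNF was at -0.62 with the mut peptide and -0.43 with the WT peptide. TNFRSF9 was then at 0.20 and -0.15, and FAS at -0.15 and -0.096. LTB and CD40 were the 2 genes that were lower than LPS with the WT peptide and higher with the mut peptide, though the intervals of LTB with the WT peptide, -0.74 to 0.003, and of CD40 with the mut peptide, -0.11 to 0.25, held 0. Both comparisons share the LPS library. Against Control, 6 of the 10 were called higher in mut PDZ+LPS, and 0 lower, against 5.13% and 2.96% of all genes tested, and these were the 5 called with the WT peptide and TNFSF13B. TNFSF13B was at 1.03 there, with an interval of -0.12 to 2.41 that held 0, and at 0.99 once length and GC content were corrected for, below 2-fold, which leaves 5.

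In the library with the mut peptide, fold changes across all genes went with transcript length. Across 11751 genes, which are not independent replicates, Spearman's rho between the log2 fold change and transcript length was -0.603 in mut PDZ+LPS/LPS and 0.0736 for the WT peptide against LPS. The median log2 fold change ran from 0.40 in the shortest decile of genes to -0.48 in the longest in mut PDZ+LPS/LPS, and from -0.0041 to 0.028 for the WT peptide. LTB, at 897 nt, has the shortest transcript of the 10, and TNFSF15 and TNFRSF9, at 6687 and 5970 nt, have the longest. When length and GC content of the transcripts were corrected for, LTB was at -0.36, TNFRSF1A at -0.094 and CD40 at -0.16 in mut PDZ+LPS/LPS, and TNFSF15 and TNFRSF9 were at 0.32 and 0.20. The sign turned for these 5 of the 10 genes. TNFSF13B stayed at 1.72. In LPS/Control and in WT PDZ+LPS/LPS the sign turned for 0 of 10. What set the trend with length was not tested.

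**Figure D4:**
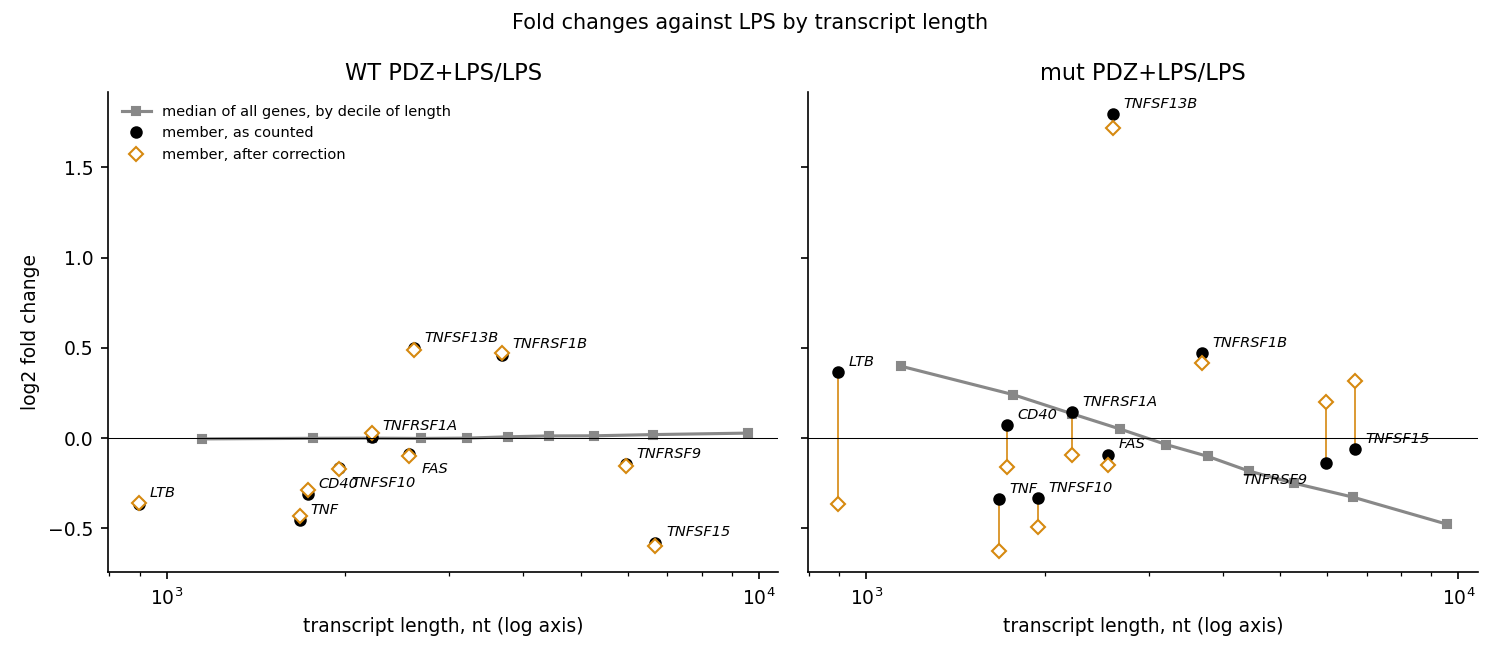
Log2 fold change (y axis) against transcript length in nt (x axis, log scale) for the libraries with the WT (left) and mut (right) peptide against LPS, with the 10 genes as counted (black) and after the correction for length and GC content (open diamonds), and the median of all genes in each decile of length (grey). With the mut peptide the grey line falls from 0.40 to -0.48 and LTB goes from 0.37 to -0.36, while with the WT peptide the line is nearly flat and the genes stay in place.

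mut PDZ+LPS/WT PDZ+LPS compares the peptides at matched times. TNFSF13B was called higher with the mut peptide, at 16 against 7 counts and a log2 fold change of 1.30 (0.050 to 2.93), 1.24 after the correction. LTB was at 0.73 (0.37 to 1.10), CD40 at 0.38 (0.19 to 0.58) and TNFRSF1A at 0.13 (0.064 to 0.20). After the correction these were -0.011 for LTB, 0.14 for CD40 and -0.12 for TNFRSF1A. The 1 call of 10 higher and 0 lower stood against 2.12% and 2.14% of all genes tested, and the 4 intervals above 0 and 0 below it against 29.4% and 34.0%. FAS was at -0.002 (-0.12 to 0.11), TNFRSF9 at 0.006 (-0.42 to 0.43) and TNF at 0.12 (-0.66 to 0.90), so a difference of up to 0.90 in TNF lay within its interval. After the correction TNF was at -0.19, TNFRSF9 at 0.36 and FAS at -0.041, and TNFSF15 went from 0.52 (-0.22 to 1.29) to 0.93. The sign turned for 4 of the 10 genes, which were TNF, LTB, TNFRSF1A and TNFRSF1B.

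The other genes of the family were read from fixed lists of 13 ligands, 24 receptors and 24 receptor adaptors and regulators. In LPS/Control 1 of the 13 other ligands, 4 of the 24 other receptors and 4 of the 24 adaptors and regulators were called higher and 0 of each lower, against 3.46% of all genes tested higher and 1.41% lower. Of these lists, 6, 15 and 24 genes reached 16 normalized counts in one of the 2 libraries. The median log2 fold changes were -0.0014 for the ligands, 0.41 for the receptors and 0.30 for the adaptors and regulators. With genes at 0 in one library set to their bound they were 0.082, 0.27 and 0.30.

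The ligand was TNFSF14 (LIGHT), which binds LTBR and TNFRSF14, at 26.1 normalized counts in Control, 63.0 in LPS, 86.8 with the WT peptide and 121 with the mut peptide. Its log2 fold change in LPS/Control was 1.24 (0.63 to 1.94). The 3 other ligands with the highest means were within 2-fold of Control in LPS. TNFSF13 (APRIL) was at 218 normalized counts in Control and in LPS, EDA (ectodysplasin) at 112 and 150.5, and TNFSF12 (TWEAK) at 91.4 and 74.3.

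Of the receptors, TNFRSF10B, a death receptor for TNFSF10, had 3705 counts in Control and 7020 in LPS and a log2 fold change of 1.03 (0.98 to 1.09). As levels per transcript length it stood 19.8-fold above TNFSF10 in Control (16.1 to 24.8) and 40.3-fold in LPS (32.4 to 50.8). TNFRSF6B, a soluble decoy for FASLG, TNFSF14 and TNFSF15, was at 1.16 (1.02 to 1.31). The symbol RTEL1-TNFRSF6B, a joined transcript that shares its sequence, had 89 counts in Control and 187 in LPS, and reads could be split between them. TNFRSF10C, a decoy for TNFSF10, had 6 and 19 counts, and TNFRSF18 (GITR) had 7 and 18. LTBR and TNFRSF12A, the receptor of TNFSF12, were at 0.22 and 0.52.

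The list of adaptors and regulators holds genes known to act on signaling from these receptors. Those called in LPS/Control were TNFAIP3, BIRC3, CFLAR and TRAF1. TNFAIP3 (A20), an enzyme that edits ubiquitin chains and limits NF-kB, was at 500.4 normalized counts in Control and 10368 in LPS, 20.7-fold higher. BIRC3 (cIAP2), a ubiquitin ligase of the TNF receptor complex, was at 1529 and 16169, 10.6-fold higher. CFLAR (c-FLIP), an inhibitor of caspase-8 at death receptors, was 2.64-fold higher, and TRAF1, an adaptor, was 2.43-fold higher. DAXX, which binds the death domain of FAS, was at 0.82.

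**Figure D5:**
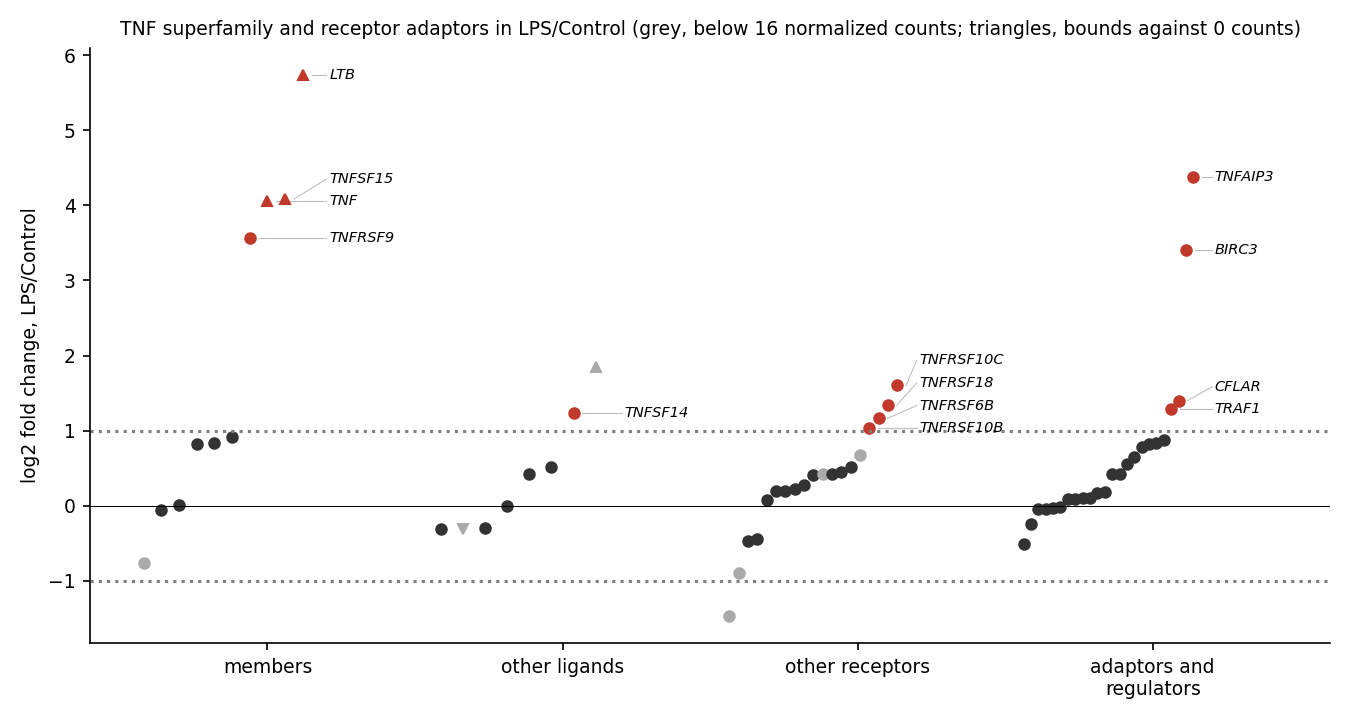
Log2 fold change in LPS/Control (y axis) of the 10 genes, the other ligands, the other receptors and the adaptors and regulators (x axis, 1 symbol for each gene, ordered by value), with called genes in red and named, genes below 16 normalized counts in grey, bounds against 0 counts as triangles and genes with 3 counts or fewer in both libraries left out. No called gene lies below 0, and LTB, TNFAIP3, TNFSF15, TNF, TNFRSF9 and BIRC3 lie above 3.

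With the peptides, 1 gene of these lists was called against LPS for the WT peptide and 2 for the mut peptide. Between the peptides 2 were called. In each comparison with LPS, 6 other ligands, 15 other receptors and 24 adaptors and regulators reached 16 normalized counts. Between the peptides these were 6, 14 and 24. Calls this few do not set the lists apart from all genes. Among all genes tested the shares called higher and lower were 0.635% and 0.733% for the WT peptide against LPS, 2.05% and 1.9% for the mut peptide against LPS, and 2.12% and 2.14% between the peptides. In WT PDZ+LPS/LPS the gene was TNFRSF18, lower at 6 counts against 18, with a log2 fold change of -1.35 (-3.10 to -0.088). In mut PDZ+LPS/LPS TNFRSF18 was higher at 34 counts, 1.19 (0.37 to 2.15), and TNFRSF6B was higher at 1.02 (0.92 to 1.12). After the correction for length and GC content these were 0.44 and 0.32. Between the peptides TNFRSF18 was 2.54 higher on the log2 scale with the mut peptide (1.45 to 4.26), 1.78 after the correction. EDA2R, a receptor for a form of ectodysplasin, was lower at 21 against 57 counts, -1.19 (-2.02 to -0.48) and -1.07 after the correction.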

How the data were processed

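RNA of BEAS-2B cells was poly(A) selected and prepared with a strand-marking kit, and read in pairs. The authors removed adapters and reads under Q20, mapped the rest with TopHat to hg19 according to the submitters' processing notes, and deposited raw counts of reads for each gene symbol. The annotation, counting tool and strand setting are not given in the sources used here.

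From the 4 libraries, 1 per group, geometric size factors were computed (DESeq2 1.42.0, R 4.3.3) and log2(normalized count + 1) was compared. Because each group had 1 library, no test was run. Genes were called at 2-fold with a normalized log2 value of at least 4 (16 normalized counts) in a library compared. Intervals were exact binomial or exact Poisson at 95%, computed in scipy 1.17.1, and cover counting error only, as each group had 1 library. Reads carried no molecular identifiers, so copies of the same molecule could be counted as separate reads. The intervals can therefore be too narrow even for counting error. A 0 was taken as 3 counts. Length and GC content of the longest protein-coding GENCODE 29 transcript were fitted by lowess with a span of 0.3 over 11751 genes whose mean was 16 normalized counts or more.

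Named were the 10 genes and those of the 3 family lists that were called in at least one of 4 comparisons or had the 3 highest means of their list. The rule also named the 3 nearest profiles of called genes with a mean of at least 100, which are not reported because the one such gene, LTB, had 0 counts in Control and its distances depend on the pseudocount. LTA, FASLG, CD40LG, TNFSF9 and TNFRSF25 were named as binding partners after their values were seen. The genes, lists, correction and promoter motifs were chosen with earlier results of these data known. Alternatives were scaling by TMM (edgeR 4.0.16), upper quartile or total count, a pseudocount of 5, a log2 value of 6, no expression rule, and folds of 1.5 and 3. Scripts were tested on simulated data.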

Additional observations from a re-analysis of the deposited data

How the results depend on the processing

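With 1 library in each group no replicate could be left out. No paired analysis was possible because each group has 1 library and the labels give no replicate numbers. The number of the 10 genes called in LPS/Control, 4 as reported, was 2 when a normalized log2 value of 6 was required and 7 at a fold of 1.5. In mut PDZ+LPS/LPS the 1 call became 0 at the log2 value of 6. In mut PDZ+LPS/WT PDZ+LPS the 1 call became 0 with a pseudocount of 5, 0 at the log2 value of 6, 2 at a fold of 1.5 and 0 at a fold of 3. In WT PDZ+LPS/LPS the count was 0 under every setting run. Of 240 single-gene values under other settings, 229 stayed within the counting interval and 11 moved outside it, 6 of them LTB, TNFRSF1A and CD40 after the correction for length and GC content in both comparisons of the mut library. With a pseudocount of 5 the log2 fold changes of TNF, LTB and TNFSF15 in LPS/Control were 3.27, 4.85 and 3.30, since the Control value is 0, and total-count scaling gave -0.19 for TNFRSF1A and 0.69 for FAS. Size factors from only the 2 libraries compared, a setting chosen after seeing the data, moved 0 of 40. Depth limits TNF, TNFSF13B, TNFSF15 and TNFRSF1B, which had under 50 counts in every library.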
